A study of Mus musculus with 6 samples.

Results

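The transcriptome described here is that of resting eosinophils grown in culture from mouse bone marrow, ordered by transcript abundance. It rests on the 2 untreated libraries of a series of 6, and the members were all genes measured in those libraries, with no choice by level. Untreated 4 h and untreated 1 h cells had received no IL-4 or IL-33 for the 4 h or the 1 h. The cells given IL-4 or IL-33 in the same series were collected after the same times. Both groups came from wild-type BALB/c mice of 4 to 8 weeks. Low-density marrow cells were grown for 14 days in medium with 10% fetal bovine serum. For 4 days the medium held stem cell factor and FLT3 ligand, each at 100 ng/ml, and after that IL-5, at 10 ng/ml. Illumina libraries were made from total RNA and read from 1 end. The number of mice behind a library is not given in the sources used here. Each group had 1 library, so no value has a replicate error, no test was possible and no p-value is given. The level of a gene was taken as its FPKM, fragments per kilobase of transcript and per 1000000 mapped fragments, summed over the RefSeq transcripts of its symbol. The deposited tables held 28702 transcripts of 22548 symbols, of which 21821 were genes other than small RNA genes and 727 were small RNA genes, which were kept apart. Abundance classes were set at 1, 10, 100 and 1000 FPKM, and a gene counted in a class when it fell there in both libraries.

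Eosinophils are granulocytes that mature in the bone marrow under IL-5 and carry large crystalloid granules. The granules hold very basic, cytotoxic proteins, among them major basic protein, eosinophil peroxidase and the ribonucleases called eosinophil-associated ribonucleases in mice. The cells enter tissue through eotaxins and their receptor CCR3, make lipid mediators such as leukotrienes, and produce superoxide with an NADPH oxidase. The granule proteins are made as the cell matures and are stored ahead of release.

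The number of reads per library is not given, but the low values may hold a trace of it. At loci with a single transcript, low FPKM values were multiplied by transcript length. The products, with length in units of 1000 bases, were counted in bins over a fixed low range. The median of the products near the fullest bin was 0.0702 at 4 h and 0.0523 at 1 h. This median, called the step, was taken as the FPKM that 1 read was worth on a transcript of 1000 bases. The choice of range limits where the step could fall. Of the values of up to about 3 steps, 63.9% at 4 h and 67.5% at 1 h lay within 0.2 of 1, 2 or 3 reads. The step was set from these same values, so values near 1 step counted by construction. The share thus does not test the step. For a transcript of 3000 bases, 1 FPKM would then rest on about 42.7 reads at 4 h and 57.4 reads at 1 h. The step was 1.34 times as large at 4 h as at 1 h. Read numbers are not given and the tables were normalised separately, so this ratio does not measure depth alone. Genes listed at 0 numbered 6859 at 4 h and 6382 at 1 h. Since Cuffdiff can also write 0 FPKM where it could not estimate a level, such genes are called listed at 0.

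The libraries matched closely at moderate and high levels. Genes with a mean of 10 to under 100 FPKM were within 1.5 times of each other in 92.2% of cases, and those of 1000 FPKM or more in 97.0%, against 78.0% of those of 1 to under 10 FPKM. Over the 10199 genes of at least 1 FPKM in both, Spearman's rho was 0.981, a description across genes, which are not independent. The untreated 1 h library held heart muscle transcripts, many of which were under 1 FPKM at 4 h. Of 39 heart and skeletal muscle genes, 20 were under 1 FPKM at 4 h and at least 1 FPKM at 1 h, and 0 showed the opposite. Myl2, the regulatory myosin light chain of the ventricle, had 0.1496 FPKM at 4 h and 33.1 FPKM at 1 h. The oxygen carrier Mb was listed at 0 at 4 h and had 30.5 FPKM at 1 h, and the atrial and ventricular myosin gene Myh6 was listed at 0 at 4 h and had 15.4 FPKM at 1 h. Cardiac actin, Actc1, had 0.812 FPKM at 4 h and 30.4 FPKM at 1 h. The summed level of the list was 161 FPKM at 4 h and 440 FPKM at 1 h, with the skeletal actin Acta1 the highest member at both times. Their part in any other value was not tested. In bulk RNA, fewer cells of a type and less RNA per cell cannot be told apart. Of the 10 genes at least 2 classes apart and at 10 FPKM or more in 1 library, 7 belonged to this muscle list, and the other three were LOC100302567, Pisd-ps1 and Rps27.

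**Figure D1:**
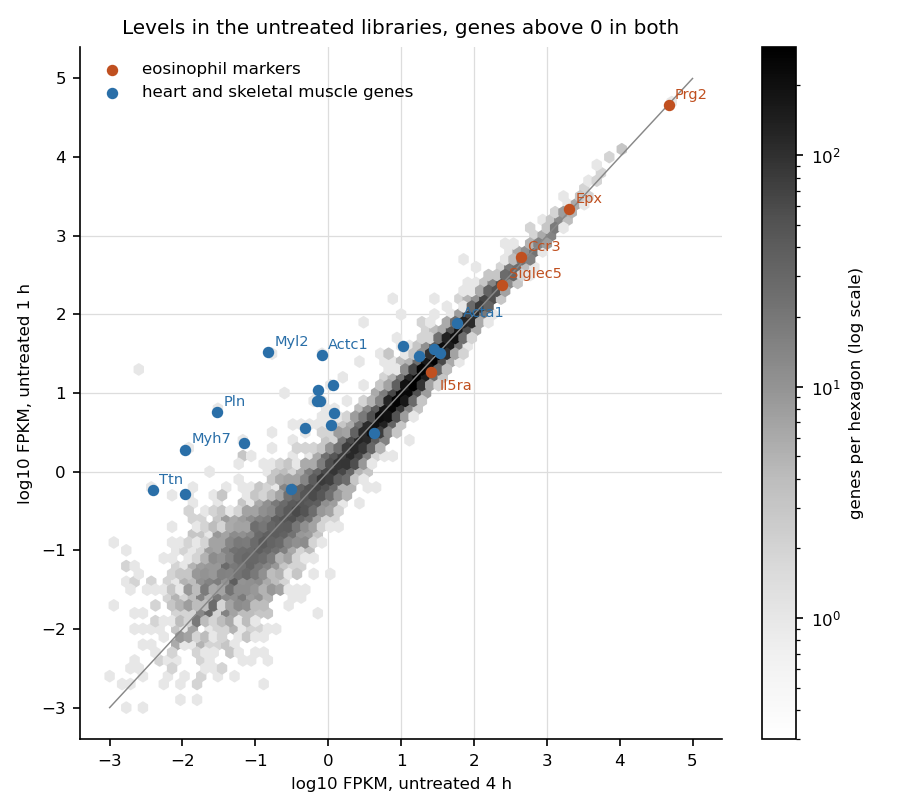
Level of each gene above 0 in both untreated libraries, as log10 FPKM at 4 h on the horizontal axis and at 1 h on the vertical axis, with grey hexagons shaded by the number of genes and a line at equal levels. Eosinophil markers lie along the line, while Myl2, Actc1, Pln and Myh7 lie far above it, with Myl2 at 0.1496 FPKM at 4 h and 33.1 FPKM at 1 h.

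Few genes made up most of the measured message. In both libraries, 91 genes (0.417% of the 21821) had at least 1000 FPKM, 760 (3.48%) had 100 to under 1000, and 4557 (20.9%) had 10 to under 100. A further 4075 genes (18.7%) had 1 to under 10 FPKM, 3795 (17.4%) lay above 0 and under 1, and 5882 (27.0%) were listed at 0 in both. The remaining 2661 genes fell in different classes in the 2 libraries. In the 4 h library alone, where the muscle list was lower, 98 genes had at least 1000 FPKM and 819 had 100 to under 1000, against 97 and 827 in the 1 h library alone. Counted by limits, 864 genes (3.96%) had at least 100 FPKM in both, 5533 (25.4%) at least 10 and 10199 (46.7%) at least 1, and 11131 (51.0%) were under 1 in both. The median over all genes was 0.729 FPKM at 4 h and 0.669 FPKM at 1 h. The most abundant gene alone held 7.18% of the total FPKM at 4 h and 6.78% at 1 h, the 10 most abundant held 17.7% at 4 h and 19.01% at 1 h, and the 100 most abundant held 41.1% at 4 h and 42.7% at 1 h. The 184 most abundant genes at 4 h and the 166 most abundant at 1 h together held 50% of the total, and 3306 and 2997 genes held 90%. The abundant transcripts were short. The median transcript length was 860 bases for genes of at least 1000 FPKM, 1856 bases for those of 100 to under 1000 and 2762 bases for those of 10 to under 100. Without the ribosomal protein genes, the most abundant class still had a median of 968 bases. Genes of 1 to under 10 FPKM had a median of 3006 bases and those above 0 and under 1 had 2957. Genes listed at 0 had 1344 bases, so length did not fall steadily with abundance. The FPKM scale divides by length, so a short transcript reaches a given FPKM with fewer reads.

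Granule protein genes led the list. Prg2, which encodes major basic protein, the core protein of the crystalloid granule, was the most abundant gene in both libraries, with 47233 FPKM at 4 h and 46216 FPKM at 1 h. It exceeded the second gene of the list, Fth1, by 3.96 times at 4 h and 3.502 times at 1 h. Epx, eosinophil peroxidase, which makes hypobromous acid, had 2027 FPKM at 4 h and 2158 FPKM at 1 h. Prg3, a homologue of major basic protein that lies next to Prg2, had 1391 FPKM at 4 h and 1524 FPKM at 1 h, so that Prg2 was 33.9 times as abundant at 4 h and 30.3 times at 1 h. Srgn, the core protein of the granule proteoglycan serglycin, had 1792 FPKM at 4 h and 2894 FPKM at 1 h. Of the 17 granule and secreted protein genes measured, 10 had at least 1000 FPKM in both libraries, against 0.417% of all genes. Together the 17 held 12.5% at 4 h and 13.2% at 1 h of the total FPKM, with a median of 1792 FPKM at 4 h and 2158 FPKM at 1 h. The chitinase-like genes were far lower. Chi3l3, also known as Ym1, had 28.1 FPKM at 4 h and 20.3 FPKM at 1 h, and its close relative Chi3l4 had 2.95 FPKM at 4 h and 1.96 FPKM at 1 h. In the mm9 coordinates of the files, Prg2 lay at chr2:84820618-84823789 and Prg3 at chr2:84828372-84834043, while Epx lay at chr11:87677500-87689038.

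The eosinophil-associated ribonuclease genes formed an abundant family. Of 10 Ear genes measured, 6 had at least 1000 FPKM in both libraries, against 0.417% of all genes. The family summed to 29627 FPKM at 4 h and 36932 FPKM at 1 h, or 4.504% and 5.41% of the total. The highest was Ear7, with 8180.3 FPKM at 4 h and 10062 FPKM at 1 h. Close to it, Ear1 had 7882 FPKM at 4 h and 9813 FPKM at 1 h. Next came Ear12, with 4353 FPKM at 4 h and 5284 FPKM at 1 h. In all 6 abundant members the value was the higher at 1 h, but members share sequence or a locus, so these are not 6 separate observations. The difference between the single libraries was not tested. Ear2 had 3859 FPKM at 4 h and 4756 FPKM at 1 h. Ear6 had 2971 FPKM at 4 h and 4174 FPKM at 1 h. Ear10, the lowest of the 6, had 2366 FPKM at 4 h and 2827 FPKM at 1 h. The other four members were scarce. Ear11 had 9.38 FPKM at 4 h and 10.1 FPKM at 1 h and Ear5 had 5.55 FPKM at 4 h and 6.04 FPKM at 1 h, while Ear4 and Ear14 were under 1 FPKM in both. The division of reads among these genes is uncertain, because Ear2 and Ear12 share a single locus in the tables, at chr14:44680319-44681196 of mm9, and so do Ear6 and Ear7, at chr14:52473443-52474317, and Ear4 and Ear14. In the reference transcripts, 57.4% of the windows of 50 bases of Ear1 also occur in another gene, as do 56.2% of those of Ear10 and 41.5% of those of Ear2, against 1.36% for Ear6 and 0% for Prg2, Prg3, Epx and Ear5. Ear7 and Ear12 could not be matched to the reference transcripts. The shares for Ear6 and Ear2 therefore do not cover overlap with the symbol at the same locus. The family sum depends less on the division of reads than any member.

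The sequence just before and after the transcription start of 4 of these genes is shown because their promoters are alike. The likeness extends to some scarce members of the family. The windows run from 250 bases before to 50 bases after the start, from RefSeq on build GRCm38.p6, and each is read 5′ to 3′ on the strand of the gene. Capitals mark the longest run that Ear1, Ear2, Ear6 and Ear10 share, which is 57 bases long and begins 147, 145, 167 and 149 bases before the start in that order.
Ear1, chr14:43819590-43819889, minus strand: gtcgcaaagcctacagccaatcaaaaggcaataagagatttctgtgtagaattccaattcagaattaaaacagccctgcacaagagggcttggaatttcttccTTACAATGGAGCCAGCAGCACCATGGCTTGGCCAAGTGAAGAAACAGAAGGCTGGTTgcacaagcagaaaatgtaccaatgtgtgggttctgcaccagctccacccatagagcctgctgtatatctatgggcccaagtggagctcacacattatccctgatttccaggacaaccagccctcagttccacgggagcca
Ear2, chr14:44102404-44102703, plus strand: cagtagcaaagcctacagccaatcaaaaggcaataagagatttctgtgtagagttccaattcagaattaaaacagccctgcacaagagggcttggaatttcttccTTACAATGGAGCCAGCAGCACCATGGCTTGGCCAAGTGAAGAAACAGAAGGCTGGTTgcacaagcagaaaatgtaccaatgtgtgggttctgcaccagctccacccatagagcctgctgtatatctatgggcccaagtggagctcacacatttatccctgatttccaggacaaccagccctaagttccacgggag
Ear6, chr14:51853518-51853817, plus strand: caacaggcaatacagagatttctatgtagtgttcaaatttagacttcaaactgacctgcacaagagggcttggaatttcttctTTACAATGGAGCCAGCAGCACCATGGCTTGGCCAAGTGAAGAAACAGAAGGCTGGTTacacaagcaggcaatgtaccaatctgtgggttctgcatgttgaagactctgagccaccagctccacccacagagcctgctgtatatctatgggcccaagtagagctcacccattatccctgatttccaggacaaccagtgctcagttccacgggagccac
Ear10, chr14:43923547-43923846, minus strand: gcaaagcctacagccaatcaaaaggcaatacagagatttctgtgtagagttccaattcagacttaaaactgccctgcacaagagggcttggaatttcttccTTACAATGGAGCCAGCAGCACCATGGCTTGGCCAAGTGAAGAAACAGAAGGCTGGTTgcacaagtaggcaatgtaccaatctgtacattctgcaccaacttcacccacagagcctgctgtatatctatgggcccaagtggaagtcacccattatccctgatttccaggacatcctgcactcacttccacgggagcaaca
Over the full windows, Ear1 and Ear2 were 97.0% identical, Ear1 and Ear10 91.4%, and Ear1 and Ear6 80.7%. Ear5 and Ear11, both scarce here, were 78.5% and 66.4% identical to Ear1. Ear5 was also 79.7% identical to Ear6 and 78.4% to Ear10, whereas the scarce Ear14 was 52.0% identical to Ear1. Likeness was thus not particular to the abundant genes. The shared run was searched for only in the 4 windows shown, so it does not mark abundant genes.

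The windows of 2 other granule genes and of a receptor gene are given for comparison, because these genes mark the eosinophil and each window holds at least 1 of the 3 sets of letters searched for. AGATAA and TGATAA are forms of the letters that GATA factors bind, and TATAAA is a form of the TATA box. Capitals mark the matches, on either strand, of which each window shown here has 1, and the 4 Ear windows have none.
Prg3, chr2:84987965-84988264, plus strand: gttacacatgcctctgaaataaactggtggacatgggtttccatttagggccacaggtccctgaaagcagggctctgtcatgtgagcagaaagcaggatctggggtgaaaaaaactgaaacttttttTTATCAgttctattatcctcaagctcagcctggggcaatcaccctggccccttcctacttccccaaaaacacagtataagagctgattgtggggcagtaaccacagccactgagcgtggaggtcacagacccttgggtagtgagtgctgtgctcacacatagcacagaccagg
Epx, chr11:87875487-87875786, minus strand: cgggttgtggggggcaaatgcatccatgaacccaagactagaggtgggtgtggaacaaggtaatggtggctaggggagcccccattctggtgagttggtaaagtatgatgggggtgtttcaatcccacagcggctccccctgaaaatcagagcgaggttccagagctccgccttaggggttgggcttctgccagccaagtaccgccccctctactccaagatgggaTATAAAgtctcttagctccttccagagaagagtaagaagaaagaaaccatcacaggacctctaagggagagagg
Ccr3, chr9:124021721-124022020, plus strand: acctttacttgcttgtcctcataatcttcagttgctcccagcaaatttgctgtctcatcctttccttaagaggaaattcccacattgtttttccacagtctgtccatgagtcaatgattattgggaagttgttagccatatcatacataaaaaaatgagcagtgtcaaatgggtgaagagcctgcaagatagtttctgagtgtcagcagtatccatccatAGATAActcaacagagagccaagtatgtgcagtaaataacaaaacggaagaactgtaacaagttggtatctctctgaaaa
In Prg3 the capitals are TGATAA read on the opposite strand, starting 123 bases before the start site. In Epx they are TATAAA, 24 bases before it, and in Ccr3 they are AGATAA, 30 bases before it. Of all 32851 promoter windows of the same length, 18.6% hold AGATAA or TGATAA and 13.6% hold TATAAA, so a match is common and is only a description. The window of Siglec5, which the reference names Siglecf, holds TGATAA, and that of Il5ra holds AGATAA.

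The surface markers of the eosinophil were present at lower levels than the granule genes. Ccr3, the eotaxin receptor, had 437 FPKM at 4 h and 533 FPKM at 1 h. Siglec5, the symbol the tables use for mouse Siglec-F, a sialic acid binding inhibitory receptor, had 245 FPKM at 4 h and 239 FPKM at 1 h. The data did not go against the label of the cells. All 5 markers checked, Prg2, Epx, Ccr3, Siglec5 and Il5ra, had at least 10 FPKM in both libraries, against 25.4% of all genes. Of the 5 markers, 4 had at least 100, against 3.96%. Il5ra, the chain that gives the IL-5 receptor its specificity, was the lowest of them, with 26.04 FPKM at 4 h and 18.7 FPKM at 1 h. The signalling chain shared by the receptors for IL-5, IL-3 and GM-CSF was far more abundant. Csf2rb had 804 FPKM at 4 h and 949 FPKM at 1 h, which was 30.9 times the level of Il5ra at 4 h and 50.8 times at 1 h. Its mouse relative Csf2rb2, a beta chain specific to IL-3, had 562 FPKM at 4 h and 652 FPKM at 1 h, and 894 of 4715 windows of 50 bases of Csf2rb and 912 of 4691 of Csf2rb2 also occur in other genes, the other of the pair among them. The specific chains were ordered Csf2ra, Il5ra and Il3ra in both libraries. Csf2ra of the GM-CSF receptor had 96.6 FPKM at 4 h and 105 FPKM at 1 h, and Il3ra had 13.4 FPKM at 4 h and 11.3 FPKM at 1 h. Of 21 eosinophil surface receptor genes, 12 had at least 100 FPKM in both, against 3.96% of all genes. Cd24a, a small anchored glycoprotein of immature and granulocytic cells, led them with 2168 FPKM at 4 h and 2289.7 FPKM at 1 h. The chemokine receptor Cxcr4, which holds cells in the marrow, had 450.1 FPKM at 4 h and 562 FPKM at 1 h. Emr1, the gene of F4/80, had 291 FPKM at 4 h and 384 FPKM at 1 h, and the tetraspanin Cd9 had 364 FPKM at 4 h and 572 FPKM at 1 h. Il1rl1, the IL-33 receptor ST2, had 67.4 FPKM at 4 h and 55.8 FPKM at 1 h. The prostaglandin D2 receptor gene Gpr44 had 1.98 FPKM at 4 h and 1.496 FPKM at 1 h and the histamine receptor gene Hrh4 had 1.64 FPKM at 4 h and 0.9603 FPKM at 1 h, both known from human eosinophils.

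**Figure D2:**
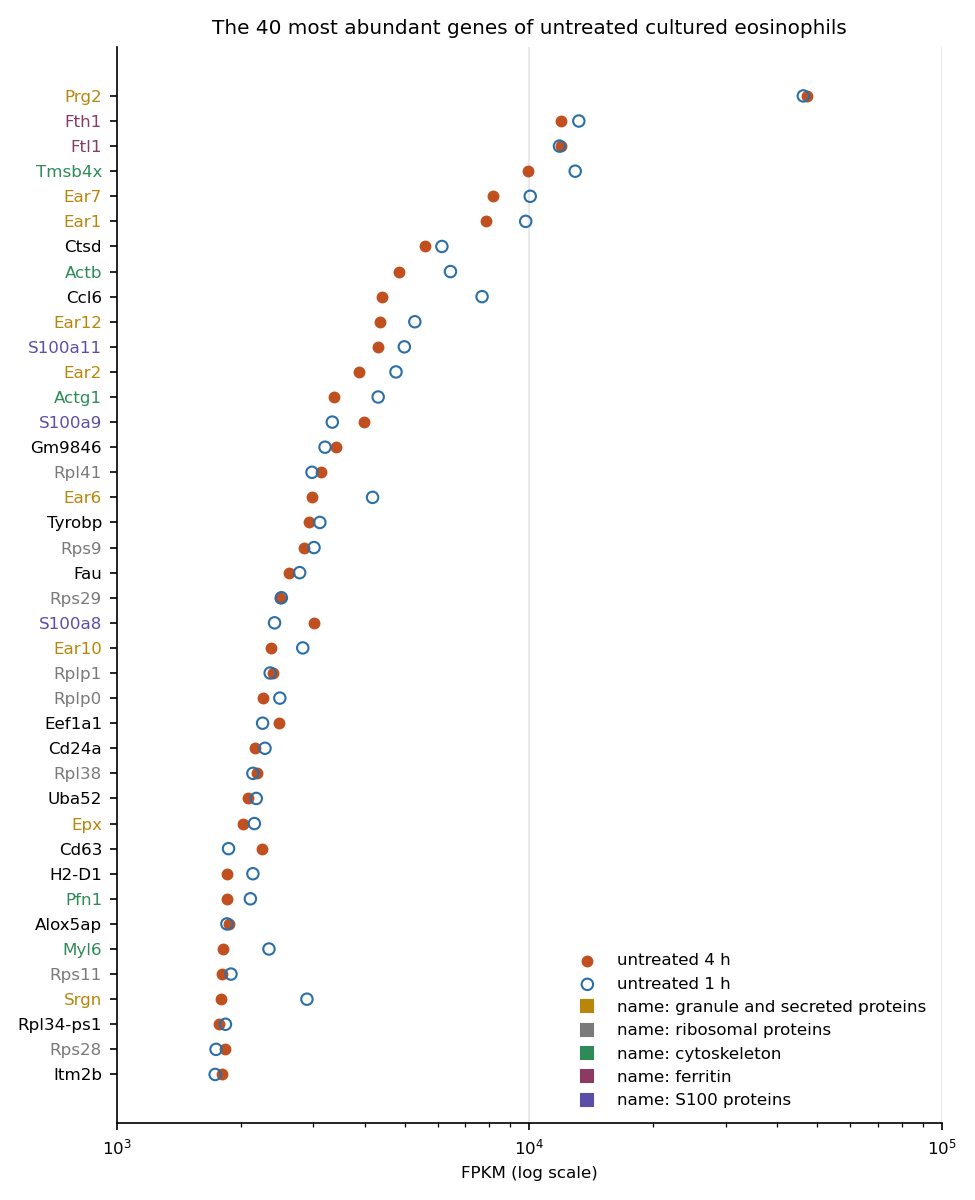
FPKM on a log axis of the 40 genes with the highest lower value, with filled points for untreated 4 h, open points for untreated 1 h, and gene names coloured by list. Prg2 stands alone at 47233 FPKM at 4 h and 46216 FPKM at 1 h, followed by the ferritin genes, Tmsb4x and the Ear genes.

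Ferritin and cytoskeletal genes stood among the most abundant, with Fth1, Ftl1 and Tmsb4x next after Prg2. Fth1, the heavy chain of ferritin, had 11933 FPKM at 4 h and 13198 FPKM at 1 h, and Ftl1, the light chain, had 11938 FPKM at 4 h and 11847 FPKM at 1 h. The transferrin receptor gene Tfrc, which brings iron in, had 21.9 FPKM at 4 h and 20.2 FPKM at 1 h, and the iron exporter gene Slc40a1 had 51.8 FPKM at 4 h and 41.4 FPKM at 1 h. In the reference transcripts, 78.9% of the windows of Ftl1 also occur in other genes, such as the pseudogene Ftl1-ps1, against 6.59% for Fth1. Tmsb4x, which binds actin monomers, had 9944 FPKM at 4 h and 12934 FPKM at 1 h, and the cytoplasmic actin gene Actb had 4849.7 FPKM at 4 h and 6447 FPKM at 1 h. The second cytoplasmic actin gene, Actg1, had 3361 FPKM at 4 h and 4306 FPKM at 1 h. Profilin, Pfn1, had 1851 FPKM at 4 h and 2110.1 FPKM at 1 h, and cofilin, Cfl1, which severs filaments, had 1695 FPKM at 4 h and 2105 FPKM at 1 h. Of 36 actin and tubulin cytoskeleton genes, 34 had at least 100 FPKM in both libraries, against 3.96% of all genes. No other list counted by this limit had a higher share. The median of the cytoskeleton list was 425 FPKM at 4 h and 480 FPKM at 1 h. Myl6, a non-muscle myosin light chain, had 1811 FPKM at 4 h and 2341 FPKM at 1 h, and the haematopoietic coronin Coro1a had 1551 FPKM at 4 h and 1526 FPKM at 1 h. Rac2, the Rac protein of blood cells, had 445 FPKM at 4 h and 505 FPKM at 1 h.

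Lysosomal and S100 genes were also abundant. Ctsd, the aspartic protease cathepsin D, had 5602 FPKM at 4 h and 6146 FPKM at 1 h, and Cd63, a tetraspanin of lysosome and granule membranes, had 2255 FPKM at 4 h and 1868 FPKM at 1 h. Laptm5 had 1344 FPKM at 4 h and 1352 FPKM at 1 h and cystatin C, Cst3, had 1112 FPKM at 4 h and 1249 FPKM at 1 h. Of 30 lysosome and cathepsin genes, 22 had at least 100 FPKM in both, against 3.96% of all genes. Ctsg, cathepsin G of neutrophil granules, was the lowest of the list, with 9.49 FPKM at 4 h and 9.69 FPKM at 1 h. Among 16 S100 calcium-binding protein genes the levels were split. S100a11 had 4306 FPKM at 4 h and 4984 FPKM at 1 h. S100a9 had 3968 FPKM at 4 h and 3333 FPKM at 1 h, and its partner in calprotectin, S100a8, had 3005 FPKM at 4 h and 2415 FPKM at 1 h. By contrast S100b, S100g, S100z, S100a2 and S100a16 were listed at 0 in both. Other genes of the top 60 included Ccl6, a CC chemokine of mouse myeloid cells, with 4403 FPKM at 4 h and 7691 FPKM at 1 h. Tyrobp, the signalling adaptor DAP12, had 2931 FPKM at 4 h and 3109.8 FPKM at 1 h. Ifitm1 had 1694 FPKM at 4 h and 1911 FPKM at 1 h. Pglyrp1, a peptidoglycan binding protein of granulocyte granules, had 1339.8 FPKM at 4 h and 1779 FPKM at 1 h.

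Genes of the translation machinery were abundant. The 83 cytosolic ribosomal protein genes held 11.9% at 4 h and 10.96% at 1 h of the total FPKM. Of these genes, 71 had at least 100 FPKM in both libraries, against 3.96% of all genes. Rpl41 led with 3133 FPKM at 4 h and 2977 FPKM at 1 h, followed by Rps9 with 2846 FPKM at 4 h and 3010.1 FPKM at 1 h. Of the 100 most abundant genes, 38 were ribosomal protein genes, 10 were granule genes and 10 cytoskeleton genes. A few ribosomal genes stood far below the rest. Rps27 had 7.01 FPKM at 4 h and 174 FPKM at 1 h, Rpl34 had 11.3 FPKM at 4 h and 9.23 FPKM at 1 h and Rpl26 had 12.9 FPKM at 4 h and 2.37 FPKM at 1 h. Other entries close to some of them were high. Rpl34-ps1 had 1773 FPKM at 4 h and 1836 FPKM at 1 h, and Gm9846, 91.1% of whose windows of 50 bases also occur in Rps27 or other genes, had 3396 FPKM at 4 h and 3201 FPKM at 1 h. The locus of Rpl34-ps1 and that of Gm9846 each held 2 symbols. How the estimates divided reads between such entries cannot be told from the tables, so these single values are uncertain. The elongation factor gene Eef1a1 had 2478 FPKM at 4 h and 2259 FPKM at 1 h. Tpt1 had 1291 FPKM at 4 h and 1282 FPKM at 1 h. At the same locus, Tpt1p had 1678 FPKM at 4 h and 1679 FPKM at 1 h. The division of reads between Tpt1 and Tpt1p is uncertain. Of 28 translation factor genes, 19 had at least 100 FPKM in both, against 3.96% of all genes. Eif4e, which binds the cap, was the lowest of the list, with 12.5 FPKM at 4 h and 11.97 FPKM at 1 h.

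The enzymes of lipid mediator synthesis ran over a wide range. Alox5ap, the protein that presents arachidonic acid to 5-lipoxygenase, had 1868 FPKM at 4 h and 1851 FPKM at 1 h. Alox15, the 12/15-lipoxygenase of mouse eosinophils, had 977 FPKM at 4 h and 1164 FPKM at 1 h, and Alox5 itself had 246 FPKM at 4 h and 241 FPKM at 1 h. Pla2g7, which degrades platelet-activating factor, had 1224 FPKM at 4 h and 1214 FPKM at 1 h. Lta4h, which makes leukotriene B4, had 196 FPKM at 4 h and 171 FPKM at 1 h, and its product's receptor gene Ltb4r1 had 165 FPKM at 4 h and 171 FPKM at 1 h. Ltc4s, which makes leukotriene C4, had only 2.51 FPKM at 4 h and 1.36 FPKM at 1 h. Receptors for the cysteinyl leukotrienes were under 1 FPKM in both, with 0.7800 FPKM at 4 h and 0.3904 FPKM at 1 h for Cysltr1 and 0.381 FPKM at 4 h and 0.185 FPKM at 1 h for Cysltr2. The constitutive cyclooxygenase gene Ptgs1 had 99.5 FPKM at 4 h and 71.3 FPKM at 1 h, and the inducible Ptgs2 had 0.456 FPKM at 4 h and 4.44 FPKM at 1 h. Of the 29 genes of the list, 6 had at least 100 FPKM in both, against 3.96% of all genes. The list median was 4.37 FPKM at 4 h and 3.28 FPKM at 1 h.

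Subunits of the phagocyte NADPH oxidase described here each had at least 100 FPKM in both libraries. Cyba, the small membrane subunit p22phox, had 1298 FPKM at 4 h and 1277 FPKM at 1 h, and Cybb, the catalytic gp91phox, had 289.8 FPKM at 4 h and 219 FPKM at 1 h. Of the cytosolic subunits, Ncf4 had 659 FPKM at 4 h and 651 FPKM at 1 h and Ncf1 had 543 FPKM at 4 h and 613 FPKM at 1 h. The oxidases of other tissues were near absence, with Nox3 and Nox4 listed at 0 in both and Duox1, Duox2, Nox1 and Noxa1 under 0.1 FPKM. Antioxidant genes were well represented. Gpx1, a glutathione peroxidase, had 1052 FPKM at 4 h and 1054 FPKM at 1 h, and catalase, Cat, had 221 FPKM at 4 h and 219 FPKM at 1 h. In all, 13 of 27 antioxidant genes had at least 100 FPKM in both, against 3.96% of all genes.

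Metabolic genes lay mostly in the moderate classes. Of 22 glycolysis genes, 9 had at least 100 FPKM in both libraries, against 3.96% of all genes. The aldolase gene Aldoa led them with 1137 FPKM at 4 h and 1392 FPKM at 1 h. Gapdh, the dehydrogenase that follows aldolase, had 711 FPKM at 4 h and 1031 FPKM at 1 h, and the pyruvate kinase gene Pkm2 had 701 FPKM at 4 h and 806 FPKM at 1 h. The lactate exporter gene Slc16a3 had 280.3 FPKM at 4 h and 624 FPKM at 1 h, whereas its relative Slc16a1 was under 1 FPKM in both. Glucose transporter genes were ordered Slc2a3, with 98.7 FPKM at 4 h and 147 FPKM at 1 h, above Slc2a1, with 42.97 FPKM at 4 h and 37.5 FPKM at 1 h. The tricarboxylic acid cycle list was lower. Of its 20 genes, 1 had at least 100 FPKM in both, against 3.96% of all genes, and 17 had at least 10, against 25.4%. Its medians were 45.5 FPKM at 4 h and 41.02 FPKM at 1 h. The respiratory chain and ATP synthase genes had medians of 94.1 FPKM at 4 h and 86.6 FPKM at 1 h. Of these 79 genes, 37 had at least 100 FPKM in both, against 3.96% of all genes. Cox7b2 and Cox8c, isoforms of cytochrome oxidase known from testis, were listed at 0 in both.

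Transcription factors of the granulocyte lineages were mostly moderate, with 23 of 31 at 10 FPKM or more in both, against 25.4% of all genes. Their medians were 31.6 FPKM at 4 h and 35.4 FPKM at 1 h. Cebpe, which drives terminal granulocyte differentiation, was the highest, with 639.8 FPKM at 4 h and 570.4 FPKM at 1 h, while Cebpa, which acts earlier in the lineage, had 16.5 FPKM at 4 h and 12.9 FPKM at 1 h. Gata1, which commits progenitors to the eosinophil fate, had 84.2 FPKM at 4 h and 76.7 FPKM at 1 h, and Gata2 had 53.9 FPKM at 4 h and 53.5 FPKM at 1 h, so that Gata1 was 1.56 times as abundant at 4 h and 1.43 times at 1 h. Id2 had 235 FPKM at 4 h and 247 FPKM at 1 h. Xbp1, which eosinophil progenitors are known to need, had 43.3 FPKM at 4 h and 48.8 FPKM at 1 h. Irf8, a factor of monocyte and eosinophil precursors, had 13.1 FPKM at 4 h and 9.99 FPKM at 1 h. Gfi1, which represses genes of other lineages, had 5.82 FPKM at 4 h and 1.57 FPKM at 1 h. Irf4 was under 1 FPKM in both. In the JAK-STAT list, Stat6, which transmits IL-4 signals, had 119 FPKM at 4 h and 125 FPKM at 1 h, Stat5b had 37.6 FPKM at 4 h and 32.8 FPKM at 1 h and Stat5a had 13.5 FPKM at 4 h and 10.5 FPKM at 1 h. Socs1, which inhibits JAK kinases, had 4.11 FPKM at 4 h and 2.803 FPKM at 1 h. Socs3, which does the same downstream of other receptors, had 1.45 FPKM at 4 h and 2.71 FPKM at 1 h. Of the survival genes, Mcl1 had 216 FPKM at 4 h and 198 FPKM at 1 h. Its relatives were lower, with 14.2 FPKM at 4 h and 11.3 FPKM at 1 h for Bcl2l1 and 0.916 FPKM at 4 h and 1.39 FPKM at 1 h for Bcl2.

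Cytokine genes ran over a wide range in resting cells. Of 50 interleukin and colony-stimulating factor genes, 29 were under 1 FPKM in both libraries, a share near the 51.0% of all genes, and 4 had at least 100, against 3.96% of all genes. Csf1, the macrophage growth factor, had 275 FPKM at 4 h and 524 FPKM at 1 h. Il1rn, the IL-1 receptor antagonist, had 225 FPKM at 4 h and 277 FPKM at 1 h. Tgfb1, known from eosinophils in tissue remodelling, had 200.1 FPKM at 4 h and 219.8 FPKM at 1 h. Il4, a type 2 cytokine that mouse eosinophils are known to store, had 87.4 FPKM at 4 h and 80.3 FPKM at 1 h. The inflammatory cytokine gene Il6 had 5.01 FPKM at 4 h and 7.73 FPKM at 1 h and Tnf had 7.76 FPKM at 4 h and 9.09 FPKM at 1 h. Il33, Il25, Il22, Ifng and Csf3 were listed at 0 in both. Among 41 chemokine genes, Ccl6 stood far above the rest, Ccl3 had 166 FPKM at 4 h and 354 FPKM at 1 h and Ccl9 had 121 FPKM at 4 h and 194 FPKM at 1 h, while 23 were under 1 FPKM in both, also near the 51.0% of all genes. Eotaxin, Ccl11, was listed at 0 in both, and eotaxin-2, Ccl24, had 0.414 FPKM at 4 h and 0.393 FPKM at 1 h. In the cytokine receptor list, the type I interferon receptor chain Ifnar2 had 208 FPKM at 4 h and 241 FPKM at 1 h and the decoy receptor Il1r2 had 115 FPKM at 4 h and 366 FPKM at 1 h. Il4ra, the chain shared by the receptors for IL-4 and IL-13, had 8.82 FPKM at 4 h and 8.11 FPKM at 1 h. Il13ra1 had 0.682 FPKM at 4 h and 0.953 FPKM at 1 h and Il13ra2 was listed at 0 in both. Of the IL-33 receptor pair, Il1rap had 3.03 FPKM at 4 h and 2.81 FPKM at 1 h, well under Il1rl1.

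Surface receptors of other kinds gave the resting cell a mixed profile. Among inhibitory receptors and Siglecs, Fcgr2b, the inhibitory receptor for IgG, had 572 FPKM at 4 h and 572 FPKM at 1 h. Sirpa, which binds CD47, had 506 FPKM at 4 h and 491 FPKM at 1 h, and Cd300lf had 239 FPKM at 4 h and 208 FPKM at 1 h. Of the Fc receptor genes, Fcer1g, the shared signalling chain, had 829.8 FPKM at 4 h and 883 FPKM at 1 h, and Fcgr3 had 733 FPKM at 4 h and 686 FPKM at 1 h. Fcer1a, the specific chain of the high-affinity IgE receptor, had 16.9 FPKM at 4 h and 12.2 FPKM at 1 h. Itgam, which pairs with Itgb2 to form Mac-1, had 630.3 FPKM at 4 h and 580.4 FPKM at 1 h, and Itgb2 had 589 FPKM at 4 h and 647 FPKM at 1 h. Itga4, an integrin chain that binds vascular and mucosal ligands, had 16.9 FPKM at 4 h and 18.7 FPKM at 1 h. Its possible partners Itgb7 and Itgb1 were higher, with 238 FPKM at 4 h and 279 FPKM at 1 h for Itgb7 and 68.1 FPKM at 4 h and 69.3 FPKM at 1 h for Itgb1. Tlr13 was the highest of the Toll-like receptor genes, with 50.2 FPKM at 4 h and 54.3 FPKM at 1 h, and Tlr4 had 15.8 FPKM at 4 h and 24.2 FPKM at 1 h, while Tlr3, Tlr5 and Tlr11 were under 1 FPKM in both. None of the 36 pattern recognition receptor genes had 100 FPKM in both libraries, against 3.96% of all genes, and 15 had at least 10, against 25.4%. P2rx1, an ATP-gated channel, had 359 FPKM at 4 h and 372 FPKM at 1 h, and the adenosine receptor gene Adora3 had 161 FPKM at 4 h and 124 FPKM at 1 h. Class I antigen presentation was abundant, with 1856 FPKM at 4 h and 2140.3 FPKM at 1 h for H2-D1 and 1462 FPKM at 4 h and 1884 FPKM at 1 h for B2m. Of 16 class I and peptide loading genes, 8 had at least 100 FPKM in both, against 3.96% of all genes. Class II genes were mostly lower. Of 16 class II and costimulation genes, 1 had at least 100 FPKM in both, against the same 3.96%. This was Cd74, with 129 FPKM at 4 h and 124 FPKM at 1 h, while H2-Aa had 30.05 FPKM at 4 h and 40.8 FPKM at 1 h. Ciita, the class II transactivator, had 0.331 FPKM at 4 h and 0.287 FPKM at 1 h.

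Genes of the general machinery of the cell clustered around the moderate class. The proteasome list had medians of 65.6 FPKM at 4 h and 61.99 FPKM at 1 h. In it, 36 of 39 genes had 10 FPKM or more in both, against 25.4% of all genes. The 2 tissue-specific subunits Psmb11 and Psma8 were under 1 FPKM. Spliceosome genes had medians of 82.5 FPKM at 4 h and 82.7 FPKM at 1 h. At least 10 FPKM in both was reached by 27 of these 28, against 25.4% of all genes. Cell cycle genes were detected throughout. All 45 had at least 1 FPKM in both, against 46.7% of all genes, and 35 had at least 10, against 25.4%. Pcna had 149.5 FPKM at 4 h and 155 FPKM at 1 h. Mki67, a marker of cycling cells, had 29.3 FPKM at 4 h and 26.3 FPKM at 1 h. Among the D cyclins, Ccnd3 had 144 FPKM at 4 h and 139.8 FPKM at 1 h, against 4.89 FPKM at 4 h and 3.73 FPKM at 1 h for Ccnd1. The inhibitor Cdkn2d had 67.3 FPKM at 4 h and 77.7 FPKM at 1 h. Replication-dependent histone genes had medians of 2.96 FPKM at 4 h and 3.59 FPKM at 1 h, and Hist1h1c was the highest, with 72.4 FPKM at 4 h and 500.5 FPKM at 1 h. Among long non-coding RNAs, Neat1, the scaffold of paraspeckles, had 605 FPKM at 4 h and 597 FPKM at 1 h. Malat1, of nuclear speckles, had 72.5 FPKM at 4 h and 74.3 FPKM at 1 h. Xist, which silences the inactive X chromosome, had 17.4 FPKM at 4 h and 15.8 FPKM at 1 h. The Y-linked genes Ddx3y, Eif2s3y, Uty and Kdm5d were under 0.1 FPKM in both libraries and Sry was listed at 0.

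**Figure D3:**
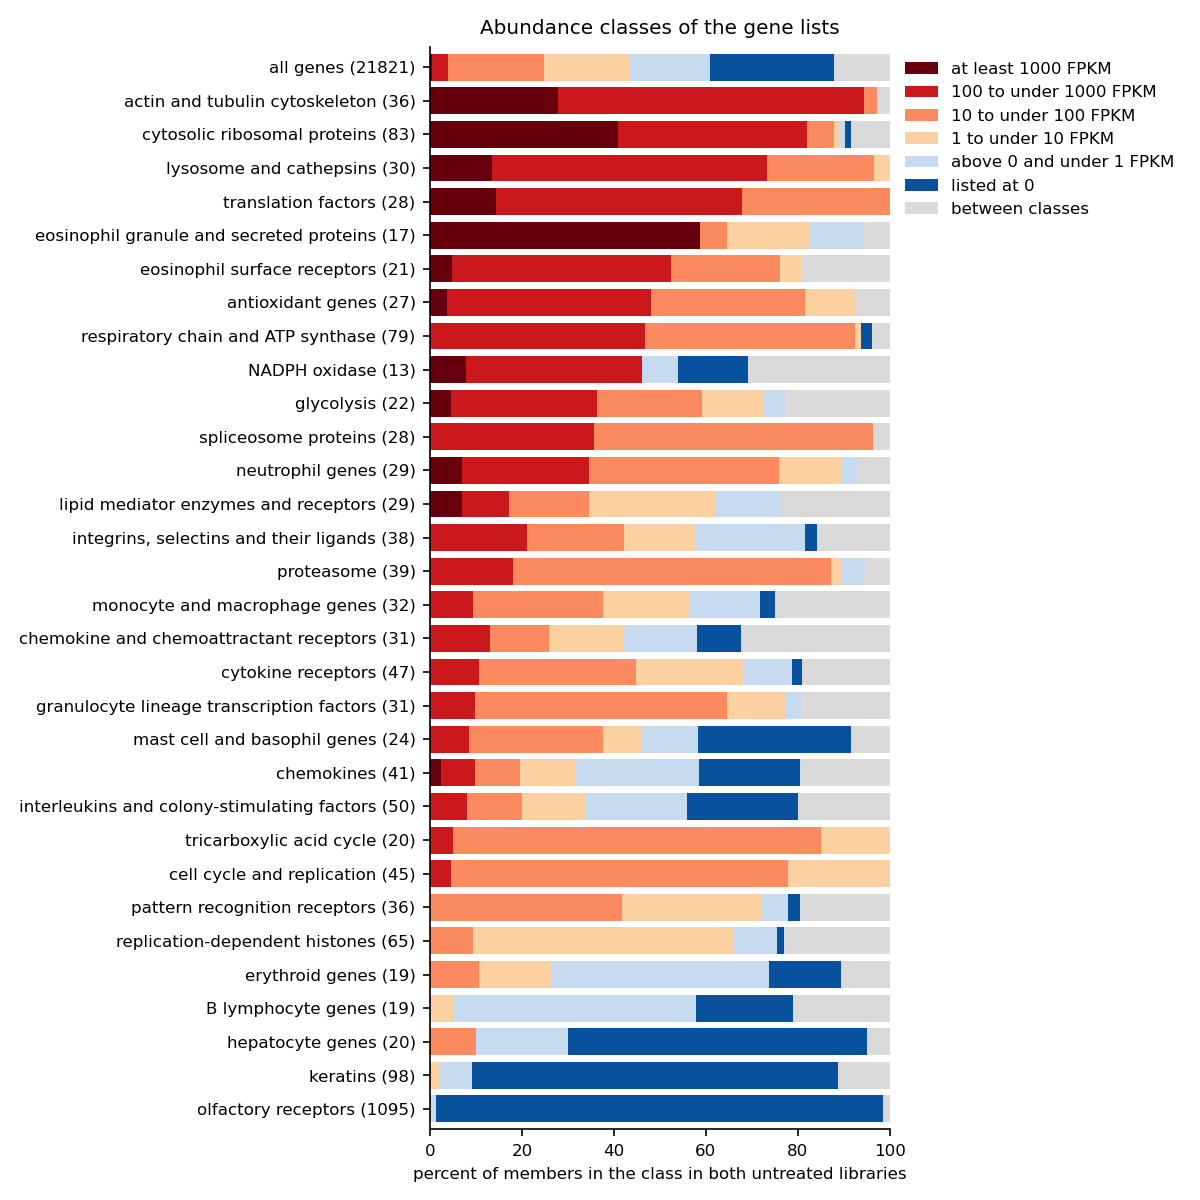
Share of the members of each gene list in each abundance class in both untreated libraries, with the number of members in brackets and all 21821 genes in the top row. Cytoskeletal, ribosomal, lysosomal and granule lists are mostly at 100 FPKM or more, while hepatocyte, keratin and olfactory receptor genes are mostly listed at 0.

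Genes known from other blood cells were measured in the same RNA. Of 29 neutrophil genes, 10 had at least 100 FPKM in both libraries, against 3.96% of all genes, and 28 had at least 1, against 46.7%. The neutrophil list summed to 10584 FPKM at 4 h and 9559 FPKM at 1 h. Besides S100a8 and S100a9, the secondary granule gene Ngp had 748 FPKM at 4 h and 807 FPKM at 1 h. Camp, the cathelicidin of the same granules, had 96.5 FPKM at 4 h and 97.7 FPKM at 1 h. Primary granule genes were lower. Mpo, myeloperoxidase, had 29.5 FPKM at 4 h and 29.2 FPKM at 1 h, so that Epx was 68.8 times as abundant at 4 h and 74.0 times at 1 h, and Elane, neutrophil elastase, had 38.00 FPKM at 4 h and 30.1 FPKM at 1 h. The monocyte and macrophage list of 32 genes summed to 3451 FPKM at 4 h and 4519 FPKM at 1 h. Lysozyme, Lyz2, had 765 FPKM at 4 h and 627 FPKM at 1 h. Csf1r, the receptor of the macrophage growth factor, had 97.8 FPKM at 4 h and 91.2 FPKM at 1 h. The complement gene C1qa had 19.9 FPKM at 4 h and 17.01 FPKM at 1 h, while Mertk and Cd163 were under 1 FPKM and Marco was listed at 0. Of 24 mast cell and basophil genes, 13 had at least 1 FPKM in both and 11 were under 1 in both, shares near the 46.7% and 51.0% of all genes. Cpa3, a mast cell and basophil carboxypeptidase, had 97.8 FPKM at 4 h and 79.6 FPKM at 1 h. The mouse basophil protease genes Mcpt8 and Prss34 were of like level, with 91.9 FPKM at 4 h and 70.05 FPKM at 1 h for Mcpt8 and 53.6 FPKM at 4 h and 47.5 FPKM at 1 h for Prss34. The connective tissue mast cell genes Cma1, Tpsb2 and Tpsab1 were under 1 FPKM, and Mcpt4 was listed at 0. Kit had 9.61 FPKM at 4 h and 5.17 FPKM at 1 h. Platelet chemokine genes were also found, with 146 FPKM at 4 h and 115 FPKM at 1 h for Pf4 and 53.8 FPKM at 4 h and 63.9 FPKM at 1 h for Ppbp. Lymphoid genes were low but measurable, with 11.2 FPKM at 4 h and 14.9 FPKM at 1 h for Cd3g and 2.11 FPKM at 4 h and 2.15 FPKM at 1 h for Cd79a, while Ms4a1 and Cd3e were under 1 FPKM. Red cell genes were low as well, with 4.38 FPKM at 4 h and 7.23 FPKM at 1 h for Hba-a1, a globin gene with near-identical copies, and 0.148 FPKM at 4 h and 0.1233 FPKM at 1 h for Alas2. Several of these genes are also used by eosinophils or their precursors, and the part of other cells in the values was not tested.

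**Figure D4:**
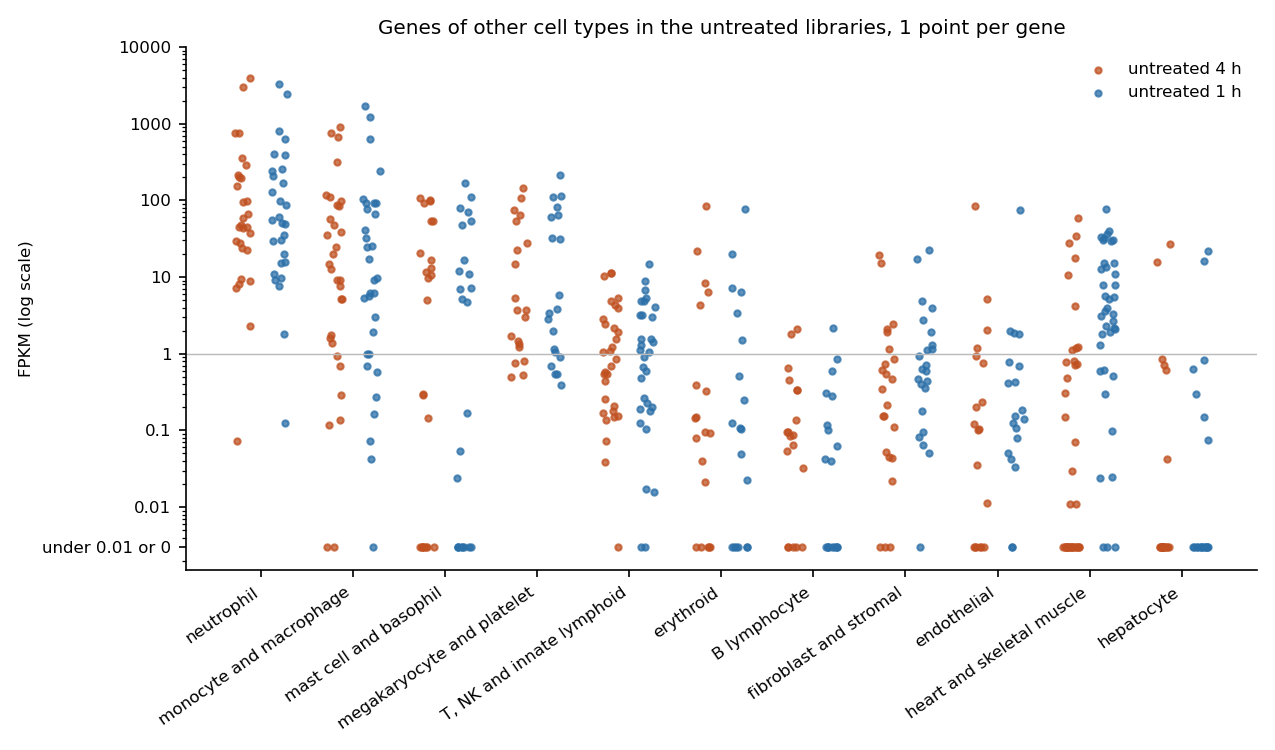
FPKM on a log axis of each gene in 11 lists of other cell types, with untreated 4 h left of untreated 1 h and values under 0.01 placed at the bottom. Neutrophil and monocyte genes reach above 100 FPKM in both libraries, while heart and skeletal muscle genes are spread higher at 1 h, with a list sum of 161 FPKM at 4 h and 440 FPKM at 1 h.

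Large families of unrelated tissues were mostly listed at 0 in both libraries. Over all genes, 27.0% were listed at 0 in both and 51.0% were under 1 FPKM in both. Of 1095 olfactory receptor genes, 1066 were listed at 0 in both and 1093 were under 1 FPKM. All 58 defensin genes were listed at 0, as were 336 of 362 vomeronasal and taste receptor genes and 78 of 98 keratin genes. None of 39 Hox genes reached 1 FPKM in both, and 38 were under it in both. Of 20 hepatocyte genes, 18 were under 1 FPKM in both, and Alb, Apoa1 and Ttr were listed at 0. Trf had 26.9 FPKM at 4 h and 21.7 FPKM at 1 h and Hp had 15.9 FPKM at 4 h and 16.3 FPKM at 1 h, both also made by blood cells. Pancreatic, neuronal and epithelial lists were alike, with 11 of 12, 17 of 19 and 14 of 19 genes under 1 FPKM. Mbp, which also has a transcript in blood cells, had 27.6 FPKM at 4 h and 27.9 FPKM at 1 h, and Cela1 had 12.8 FPKM at 4 h and 16.8 FPKM at 1 h. Of 23 fibroblast and stromal genes, 14 were under 1 FPKM in both, near the 51.0% of all genes, with 0.343 FPKM at 4 h and 0.443 FPKM at 1 h for Col1a1 and 19.5 FPKM at 4 h and 22.6 FPKM at 1 h for Acta2. Endothelial genes Cdh5 and Tek were under 1 FPKM, while Pecam1, also a leukocyte gene, had 84.3 FPKM at 4 h and 75.9 FPKM at 1 h.

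At the limit of 100 FPKM, the genes just above it were Stk24, Adpgk, Anxa2, Snx3 and Slc7a11, with lower values of 100.0 to 100.1 FPKM. The genes just below were Pxn, Ly6a, Nt5c3, Lrp10 and Ssr3, with 99.6 to 99.9 FPKM, so the limit cuts a continuous range. Most genes of at least 10 FPKM in both, 4279 in number, had a single transcript in the tables. Another 1254 had several, and the same transcript was the highest in both libraries for 1143 of them (91.1%). The highest transcript held a median of 78.6% of the gene's FPKM at 4 h and 78.0% at 1 h. Il1rl1 had 95.6% of its FPKM in 1 of 2 transcripts at 4 h and 91.1% at 1 h. Those of Cd300lf were nearly even, with 50.8% for the first at 4 h and 44.6% at 1 h. Prg2, Epx, Prg3 and the Ear genes had a single transcript each.

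Small RNA genes encode products shorter than the fragments that libraries of this kind usually keep, and their loci often lie inside larger genes. Of 727, 35 had at least 100 FPKM in both libraries, 69 had at least 1, 591 were listed at 0 in both and 65 in 1 library only. They summed to 9.76% of the total FPKM at 4 h and 7.74% at 1 h. The mature sequences of those that stand out are shown, from RefSeq on build GRCm38.p6, with the seed (bases 2 to 8) in capitals. miR-142 and miR-223 are known microRNAs of blood cells, and Mir3064 and Mir5114 had the highest values.
mmu-miR-142a-5p: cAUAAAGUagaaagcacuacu
mmu-miR-142a-3p: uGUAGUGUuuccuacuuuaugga
mmu-miR-223-5p: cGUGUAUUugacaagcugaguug
mmu-miR-223-3p: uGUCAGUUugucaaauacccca
mmu-miR-3064-5p: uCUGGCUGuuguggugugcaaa
mmu-miR-5114: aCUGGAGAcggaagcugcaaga
These 6 sequences have 6 different seeds, and the matched table holds 9 of the 10 most abundant small RNA genes. Mir142, at a locus of its own of 64 bases on chromosome 11, had 4856 FPKM at 4 h and 4784 FPKM at 1 h. Mir223 had 915 FPKM at 4 h and 1531 FPKM at 1 h and its locus on the X chromosome also holds F630028O10Rik, with 148 FPKM at 4 h and 193 FPKM at 1 h. Mir3064 had 17381 FPKM at 4 h and 13662 FPKM at 1 h inside a locus it shares with the helicase gene Ddx5, which had 378 FPKM at 4 h and 560.2 FPKM at 1 h. Mir5114 had 16956 FPKM at 4 h and 5927 FPKM at 1 h inside the locus of Scd2, a stearoyl-CoA desaturase gene with 98.7 FPKM at 4 h and 58.2 FPKM at 1 h. Mir684-1 had 4278 FPKM at 4 h and 3281 FPKM at 1 h summed over 9 loci that include 5 of 85 bases with equal values, so its sum counts near-identical copies. A few were far apart between the libraries. Mir1982 had 368 FPKM at 4 h and 1497 FPKM at 1 h, and Mir3960 had 402 FPKM at 4 h and 1189 FPKM at 1 h. FPKM of a hairpin gene in such a library does not measure the mature microRNA.

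**Figure D5:**
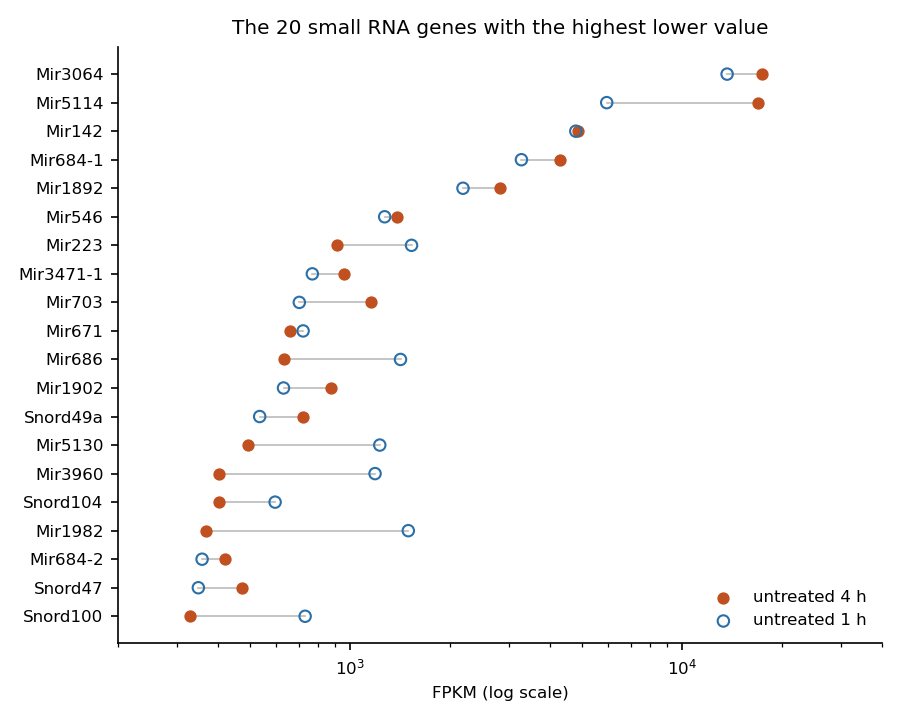
FPKM on a log axis of the 20 small RNA genes with the highest lower value, with filled points for untreated 4 h and open points for untreated 1 h joined by a line. Mir142 is nearly equal in both, at 4856 FPKM at 4 h and 4784 FPKM at 1 h, whereas Mir5114 is far apart, at 16956 FPKM at 4 h and 5927 FPKM at 1 h.

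The most abundant genes were also set beside those of cells given IL-4 or IL-33 at 10 ng/ml for 4 h or 1 h, 1 library each. Of the 100 most abundant genes of the untreated libraries, 99 were among the 100 most abundant of the IL-4 4 h library, 96 of the IL-4 1 h library, 90 of the IL-33 4 h library and 88 of the IL-33 1 h library. Prg2 was the most abundant gene in each of these 4 libraries, with 7.73% of the total FPKM at 4 h of IL-4, 6.83% at 1 h of IL-4, 6.03% at 4 h of IL-33 and 6.23% at 1 h of IL-33.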

How the data were processed

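RNA of 6 cultured eosinophil libraries was sequenced, 1 for each of 6 groups, and 2 untreated libraries are described here. The values are FPKM per RefSeq transcript, deposited by the authors in 4 tables, each of which sets a treated library beside its untreated one. Per the submitters' processing notes, TopHat 1.4.1, Cuffdiff 1.2.1 and genome build mm9 were used. The tables were normalised separately, so an untreated library of the IL-33 tables had 0.945 times its IL-4 table value at 1 h and 0.947 times at 4 h. The columns of the IL-4 tables were used. The authors' p-values, ratios and fold changes were not used.

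Transcripts were summed per symbol, without a minimum level, and genes were classed at 1, 10, 100 and 1000 FPKM. More than 1 transcript was summed for 3869 symbols, and 232 symbols had transcripts at more than 1 locus. With 1 library per group there was no test. The design named a protein sequence comparison that was not made. The members and the 61 gene lists were chosen with earlier results of these data known, so no count over them is independent evidence. Genes were named by rule, which took the 60 with the highest lower value of the 2 libraries, members of the lists, the 10 highest small RNA genes and the 5 genes on either side of 100 FPKM. Genes that share a locus with a small RNA gene, those far apart between the libraries, Mir1982, Mir3960, Gm9846 and Ftl1-ps1 were named after their values were seen. Transcript lengths and shared windows of 50 bases came from GENCODE M21 transcripts matched by RefSeq accession. Only names and transcript or promoter sequences were taken from that build, GRCm38, and positions of loci are those of the files. In shares of windows, 55 of the 60 most abundant genes could be matched. Promoter windows were matched for too few genes to compare classes. The class steps were tested on simulated data with 200 genes at known levels. Python 3.11.15, pandas 2.3.3, numpy 2.4.6, Biopython 1.88 and matplotlib 3.10.9 were used. Alternatives tried were the IL-33 tables, the highest transcript, a single locus, scaling to 1000000, the mean of both libraries, other class limits, each library alone and other rules for small RNA genes. Some genes are not reported here.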

Additional observations from a re-analysis of the deposited data

How the results depend on the processing

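The class counts stayed within 1.5 times of the values given under the control columns of the IL-33 tables, the highest transcript per gene, a single locus, scaling to 1000000, the mean of both libraries and both other rules for small RNA genes. With each library alone the class of at least 1000 FPKM held 97 and 98 genes, that of 100 to under 1000 held 819 to 827, and genes listed at 0 numbered 6382 to 6859. The class limits decide the counts most, by construction. With limits multiplied by 2, the class of at least 1000 FPKM held 30 genes and that of 100 to under 1000 held 390, and with limits multiplied by 0.5 they held 185 and 1473. When small RNA genes were counted with the rest, the 10 most abundant genes held 19.5% of the total FPKM at 4 h and the 100 most abundant held 43.1% at 4 h. These moved by more than the gap between the untreated libraries, because small RNA genes joined the list, and 94 of the 100 most abundant genes remained. Under the other 5 settings at least 99 remained. The level of Prg2 was 44745 FPKM at 4 h and 43667 at 1 h in the IL-33 tables, and 71814 at 4 h and 67759 at 1 h after scaling, both by a constant factor for the library. Of 122 list counts, 118 at 1 h alone and 121 at 4 h alone stayed within 1.5 times. The exceptions include the heart and skeletal muscle genes of at least 10 FPKM, 13 at 1 h alone against 5 in both libraries. No paired analysis was possible because each group has 1 library. Depth limits low values, where 1 read moves a short transcript by much, and no alternative replaces a second library.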

Other observations

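Of 34 interferon-stimulated genes, 33 had at least 1 FPKM in both untreated libraries, against 46.7% of all genes, 20 had at least 10, against 25.4%, and 4 had at least 100, against 3.96%, with medians of 11.2 FPKM at 4 h and 22.8 FPKM at 1 h. Bst2, which tethers budding virus, had 146 FPKM at 4 h and 225 FPKM at 1 h. Irf7, the factor that drives type I interferon genes, had 69.8 FPKM at 4 h and 149 FPKM at 1 h, and Isg15 had 18.4 FPKM at 4 h and 50.9 FPKM at 1 h. The chaperone list of 37 genes had medians of 53.01 FPKM at 4 h and 63.4 FPKM at 1 h. Calr, a calcium-binding chaperone of the endoplasmic reticulum, had 529 FPKM at 4 h and 635 FPKM at 1 h, and Hspa5, the BiP chaperone, had 134 FPKM at 4 h and 225 FPKM at 1 h. The stress-inducible Hspa1a and Hspa1b, which are near-identical copies, were under 1 FPKM in both libraries.

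Of 68 serpin, cystatin and related genes, 5 had at least 100 FPKM in both libraries, against 3.96% of all genes, and 50 were under 1 in both, against 51.0%. Serpinb2, an inhibitor of urokinase, had 374 FPKM at 4 h and 781 FPKM at 1 h. Slpi, which inhibits leukocyte elastase, had 137 FPKM at 4 h and 132 FPKM at 1 h, and the cystatin-like gene Stfa2 had 153 FPKM at 4 h and 167 FPKM at 1 h.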
